A study of Homo sapiens with 6 samples.

Results

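The sites described here are the intervals bound by HuR, the ELAVL1 protein, that lie in the major histocompatibility complex (MHC) region of the genome, taken as chr6:29600001-33400000 on hg19. Intervals of either strand that lay wholly inside these limits were taken from all 5 deposited lists and sorted into class III (chr6:31500001-32350000), class II (chr6:32350001-33400000) and class I (chr6:29600001-31500000). The rule used position alone, and no interval in any of the 5 lists lay across a limit. The region held 513, 818 and 937 sites in HuR replicates 1, 2 and 3, out of 186157, 405048 and 550681 sites in all. In the list made from the 3 replicates together it held 1194 of 658853 sites, and in the authors' p-filtered form of that list 719 of 373845. Over the 5 lists this came to 4181 of 2174584 intervals.

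HEK293 cells, a widely used line derived from human embryonic kidney, were studied with no treatment named in the labels. Lysate was digested with micrococcal nuclease, and RNA fragments were recovered with the mouse anti-HuR antibody 3A2 (3 samples) or with normal mouse sera as the negative control (3 samples). No values of the control samples were analysed here. Digested lysate was pooled and then shared out among the immunoprecipitations, so an SD with n = 3 may cover technical spread only.

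The MHC is one of the most gene-dense stretches of the human genome. Its class I part holds genes of peptide presentation to cytotoxic T cells and many genes without a part in immunity. Its class II part holds the HLA-D genes, which are expressed mainly in antigen-presenting cells, and the TAP1, TAP2, PSMB8 and PSMB9 genes of peptide processing. Class III lies between them and holds no HLA gene. It contains complement genes, the cytokine genes TNF, LTA and LTB, heat shock genes of the HSPA1 family and widely expressed genes such as the RNA helicase gene DDX39B and the chaperone gene BAG6. HuR binds U-rich and AU-rich RNA and is known for stabilising mRNAs with AU-rich elements, among them TNF mRNA in macrophages. Gene names are absent from the lists, and the annotation used here is on GRCh38, so sites are given by hg19 position and none is assigned to a gene.

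Gene order on GRCh38 gives the setting without coordinates. In GENCODE, 66 protein-coding genes run from DDX39B to NOTCH4 in class III, 35 from BTNL2 to DAXX in class II and 47 from HLA-F to MICB in class I. Of these, 32 in class III, 12 in class II and 27 in class I are on the plus strand. These landmark genes were chosen by name and do not mark the hg19 limits used for the sites.

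Class III carried the densest HuR sites of the MHC in every replicate. Its 0.85 Mb held 171, 258 and 284 sites in replicates 1, 2 and 3, against 105, 171 and 199 in the 1.05 Mb of class II and 237, 389 and 454 in the 1.9 Mb of class I. Per Mb of genome, both strands together, this was 201, 304 and 334 sites in class III, 100.0, 163 and 190 in class II and 125, 205 and 239 in class I. Within a replicate the 3 classes kept the same order, class III above class I above class II. Class III averaged 280 ± 69.6 sites per Mb, class II 151 ± 46.0 and class I 189 ± 58.6 (SD, n = 3 each).

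The ratio of class III to class II density was 1.88 ± 0.125 and that of class III to class I was 1.50 ± 0.108 (SD, n = 3). Class II stood at 0.797 ± 0.00441 times class I (SD, n = 3), with the same side of 1 in all 3 replicates. Each ratio lay further from 1 than its spread between replicates. With 3 replicates the smallest two-sided p of an exact sign-flip test is 0.25, so no p is given. The ratio of class III to class I depended on where the limit was drawn: with both inner limits moved 100 kb up it was 1.10, and with both moved down it was 1.57. The bin just past the class I limit, chr6:31500001-31600000, held 35, 56 and 55 sites.

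Measured as sequence, class III had 10588, 21071 and 21053 nt called per Mb in replicates 1, 2 and 3. Class II had 4967, 11414 and 11148 nt per Mb and class I had 5658, 12989 and 13461. The sites covered 0.878% ± 0.302 of both strands in class III, 0.459% ± 0.182 in class II and 0.535% ± 0.219 in class I (SD, n = 3). Median widths in the same replicate order were 45, 60 and 55 nt in class III, 45, 60 and 45 nt in class II and 40, 55 and 50 nt in class I, so width differed little between the classes. Sites wider than 200 nt were few, with 2, 7 and 7 in class III, 1, 4 and 2 in class II and 0, 2 and 0 in class I.

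Against the rest of the genome the MHC as a whole was denser in every replicate, but by a ratio that differed between the lists. The MHC held 135, 215 and 247 sites per Mb in replicates 1, 2 and 3, and the rest of the genome 60.1, 131 and 178. The length of the rest of the genome ran to each chromosome's last site. Stretches without sites were left in, whether or not a site could be called there, and they lower its density. The ratios were 2.25, 1.65 and 1.39, a mean of 1.76 ± 0.442 (SD, n = 3), and the shortest list gave the highest ratio. Class III alone stood at 3.35, 2.32 and 1.88 times the rest of the genome, class II at 1.66, 1.24 and 1.07 times and class I at 2.08, 1.56 and 1.34 times. The rest of chromosome 6 had 76.2, 169 and 217 sites per Mb. The MHC was 1.77, 1.27 and 1.13 times as dense as that. Class III and class I were denser than the rest of the chromosome in every replicate. Class II, with 100.0, 163 and 190 sites per Mb, was denser in replicate 1 only. The first 20 Mb of chromosome 19, another gene-dense stretch, had 100.0, 162 and 211 sites per Mb, and class III was 1.82 ± 0.219 times as dense (SD, n = 3). Class II stood at 0.967 ± 0.0604 times that stretch, a difference smaller than the spread. Sites per Mb were not corrected for transcript abundance. The gene counts above are highest in class III, with 66, as is site density. The counts are 35 genes in class II and 47 in class I. Because the landmark genes do not mark the limits of the classes, gene number per Mb was not set against site density. The part of transcript abundance and gene number in the result was not tested.

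**Figure D1:**
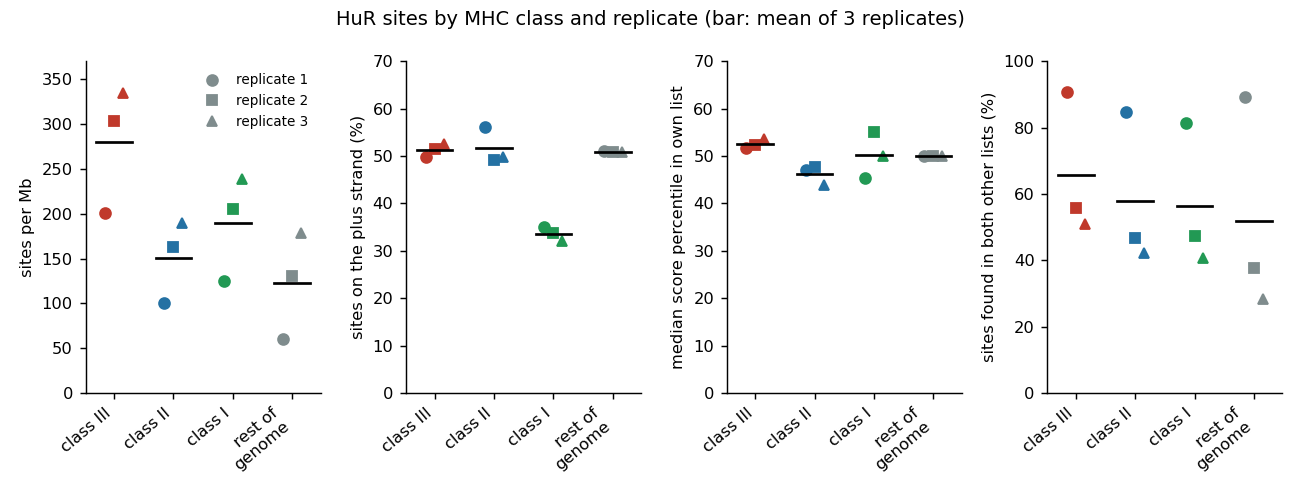
Values of each MHC class and of the rest of the genome in the 3 HuR replicates: sites per Mb, percent of sites on the plus strand, median score percentile within the replicate's own list, and percent of sites overlapping a site in both other lists. Points are replicates and bars their means. Class III has the highest density in each replicate (201, 304 and 334 sites per Mb), and class I stands apart in strand, with 35.0%, 33.7% and 32.2% of its sites on the plus strand.

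The sites were gathered in a few crowded places separated by long empty stretches. In 100-kb bins, the 3 fullest bins of class III held 69.0%, 67.4% and 63.0% of its sites in replicates 1, 2 and 3. The corresponding shares were 72.4%, 70.0% and 69.2% in class II and 52.3%, 48.8% and 46.7% in class I, which has more bins. The bin across the limit of classes III and II was counted in neither. By the mean of the replicates, the 3 fullest bins of the whole region lay 1 in each class. In class III, chr6:31700001-31800000 held 50, 72 and 76 sites. In class II, chr6:33200001-33300000 held 31, 59 and 69, and in replicate 1 it was below 3 bins of the other classes that held 33 to 35. In class I, chr6:30500001-30600000 held 63, 92 and 101, the most of the 38 bins in each replicate.

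In the combined list the median bin held 41.5 sites in class III, 12 in class II and 21 in class I, and 1 over all 30945 bins of the listed chromosomes. More than 74 combined sites lay in 1 of 8 bins in class III, 1 of 10 in class II and 2 of 19 in class I, shares near the 9.86% of all bins that did. Bins without any combined site numbered 0 of 8 in class III, 0 of 10 in class II and 1 of 19 in class I, against 39.3% of all bins. With those bins left out, the median was 41.5 in class III, 12 in class II and 22.5 in class I. Over all remaining bins it was 17, above class II. With empty bins left out on both sides, the MHC was 1.10 ± 0.275 times as dense as the rest of the genome (SD, n = 3), a difference smaller than the spread, against 1.76 ± 0.442 with them. That choice of bins uses the sites being compared, so nothing is read from it.

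The emptiest bin of the region was chr6:31000001-31100000 in class I, with 0 sites in all 3 replicates. By the mean of the replicates 3 bins tied for the next place: chr6:32300001-32400000 across the limit of classes III and II and chr6:31200001-31300000 in class I, each with 0, 1 and 1, and chr6:30900001-31000000 in class I, with 0, 0 and 2. The longest stretch without a base called in all 3 replicates ran from the end of class III into class II, chr6:32242311-32610895, over 369 kb. In replicate 1, 314 kb of it, chr6:32294241-32608590, had no site on either strand. The next longest were chr6:31134386-31362165 (228 kb) and chr6:30895811-31114110 (218 kb), both in class I. In the combined list, which has more sites, the longest empty stretch was chr6:32632071-32785290 in class II, over 153 kb. The absence of a site does not show the absence of HuR, because read depth is unknown.

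**Figure D2:**
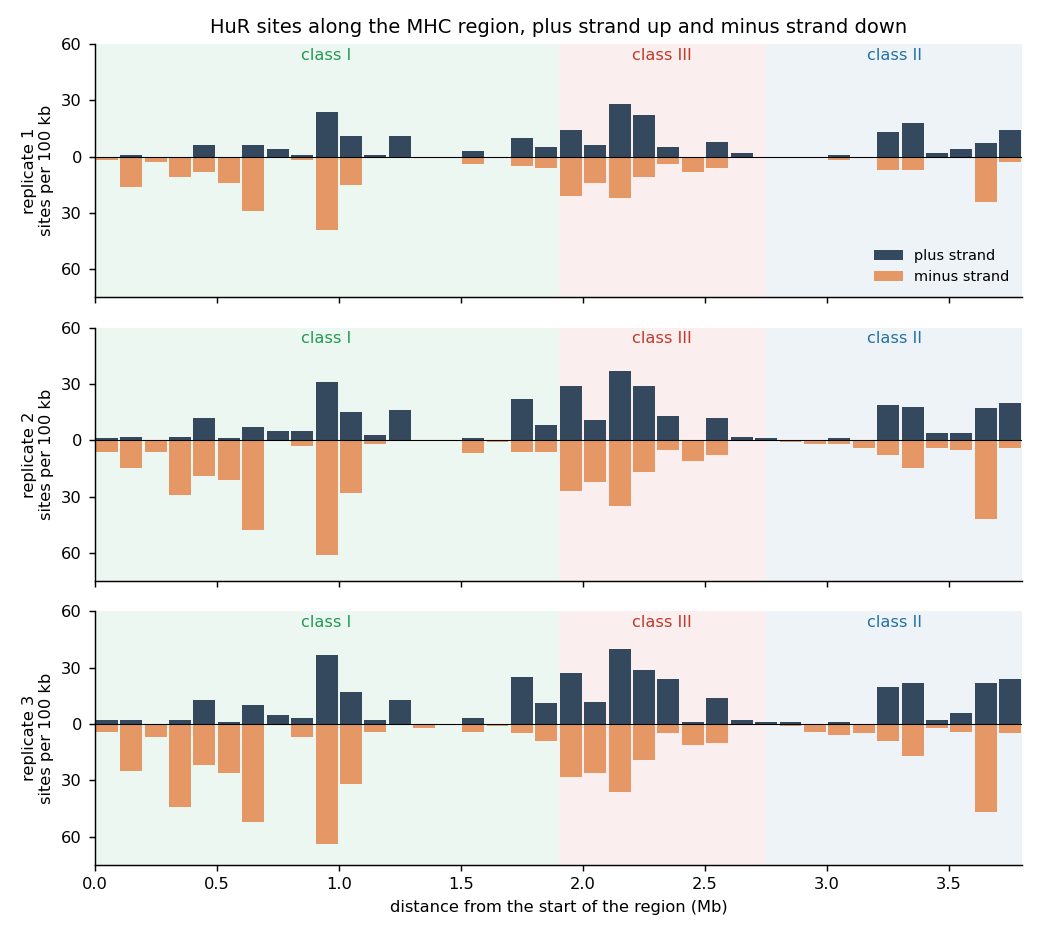
HuR sites per 100-kb bin along the MHC region in replicates 1, 2 and 3, plotted against distance from the start of the region in Mb, with plus-strand counts above the line and minus-strand counts below it. Shading marks the classes in chromosomal order. The same bins are full in each replicate, among them the class I bin with 63, 92 and 101 sites, and minus-strand bars dominate the left part of class I.

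Strand separated class I from the other classes. On the plus strand lay 49.7%, 51.6% and 52.5% of class III sites in replicates 1, 2 and 3, and 56.2%, 49.1% and 49.7% of class II sites. In class I the plus-strand share was 35.0%, 33.7% and 32.2%, below both other classes in every replicate. The means were 51.2% ± 1.40 in class III, 51.7% ± 3.91 in class II and 33.6% ± 1.43 in class I (SD, n = 3), and 50.9% ± 0.126 in the rest of the genome. Class III exceeded class I by 17.6 ± 2.82 percentage points and class II exceeded class I by 18.1 ± 2.89 points (SD, n = 3). Class III and class II differed by -0.446 ± 5.23 points, less than the spread, and the sign differed between replicates. Of the protein-coding genes counted above, 48.5% in class III, 34.3% in class II and 57.4% in class I are on the plus strand. In class II and class I the gene shares differed from the site shares. The landmark genes do not mark the limits of the sites, and gene length and expression were not weighed. No match or mismatch is therefore read from these shares. The part of gene strand in the result was not tested.

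By strand, the density of class III differed from that of class I on the plus strand and that of class II differed from class I mainly on the minus strand. Class III had 100.0, 156 and 175 plus-strand sites per Mb, class II had 56.2, 80.0 and 94.3, and class I had 43.7, 68.9 and 76.8. On the minus strand class III had 101, 147 and 159 sites per Mb, class II had 43.8, 82.9 and 95.2, and class I had 81.1, 136 and 162. The ratio of class III to class I was thus 2.28 ± 0.00993 on the plus strand and 1.10 ± 0.135 on the minus strand (SD, n = 3), where replicate 3 lay just below 1, at 0.980. The ratio of class II to class I was 1.22 ± 0.0630 on the plus strand and 0.579 ± 0.0355 on the minus strand (SD, n = 3). Class III stood above class II on both strands, at 1.86 ± 0.0883 on the plus and 1.92 ± 0.344 on the minus strand (SD, n = 3).

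The minus-strand excess of class I was spread over neighbouring bins of its first part rather than over all of it. Of 15 class I bins with at least 10 combined sites, 11 had most of them on the minus strand and 4 on the plus strand. Of 7 such bins each in class III and in class II, 5 had most on the plus strand and 2 on the minus strand. The class I bin chr6:29900001-30000000 had 2 combined sites on the plus strand and 47 on the minus strand, and chr6:30200001-30300000 had 13 and 70. By contrast, chr6:30800001-30900000 had 21 and 0, and chr6:31300001-31400000, near the end of class I, had 33 and 8.

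The strand differences changed in size, some down and some up, with the weight given to crowded places. Without the 3 fullest 100-kb bins of each class, class III exceeded class I by 8.36 ± 7.35 points, in place of 17.6. The same choice gave 25.4 ± 8.74 points for class II minus class I and -17.1 ± 14.0 points for class III minus class II (SD, n = 3). When 10-kb windows with at least 2 sites were counted once each by their majority strand, class III exceeded class I by 8.67 ± 7.11 points and class II by 11.1 ± 6.10 points (SD, n = 3). Class II then stood -2.42 ± 1.11 points from class I, so the plus-strand excess of class II over class I held for sites and not for windows. Neighbouring sites mostly shared a strand: 91.2% ± 3.08 of class III sites, 90.9% ± 0.779 of class II sites and 93.3% ± 2.62 of class I sites (SD, n = 3) had their nearest other site on their own strand. Sites of 1 window are therefore not independent.

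Sites that overlapped a site on the opposite strand were rare. In the replicate lists they lay mostly in class III, with 2, 4 and 10 sites in replicates 1, 2 and 3. Class II had 0, 2 and 0, and class I had 0, 0 and 4. As shares, these were 1.17%, 1.55% and 3.52% in class III, against 0.232%, 0.446% and 0.557% in the rest of the genome. In the combined list class III held 13 of the 27 such sites of the MHC, class II 6 and class I 8. The counts are small and an overlap counts both of its sites.

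Scores were compared as percentiles within each list, because the authors' LOD score has different levels in each list and its scale is not stated in the sources at hand. The median percentile was 51.8, 52.3 and 53.5 in class III, 47.0, 47.6 and 43.9 in class II and 45.3, 55.1 and 50.1 in class I. Class III exceeded class II in every replicate, by 6.37 ± 2.85 points (SD, n = 3). It did not differ from class I beyond the spread, at 2.38 ± 4.72 points, and class II stood -3.99 ± 4.94 points from class I. The sign of both of these differences varied between replicates. The median of the whole MHC was 49.7 ± 2.73, against 50.01 ± 0.00923 in the rest of the genome.

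Class III had more sites at both ends of the score distribution than the whole lists had. Of class III sites, 14.6%, 15.9% and 15.5% were in the highest score decile of their list, against 7.62%, 12.3% and 8.04% of class II sites and 8.44%, 13.4% and 13.7% of class I sites. In the lowest decile were 18.1%, 18.6% and 16.2% of class III sites, 16.2%, 17.5% and 22.6% of class II sites and 12.2%, 14.9% and 14.1% of class I sites. A share of 10% holds for a whole list. The lowest decile was thus above that share in all classes and replicates. Of the 3 classes, only class III had a highest decile above it in all replicates. Against the rest of the genome, class III exceeded the share in the highest decile by 5.34 ± 0.654 points and in the lowest by 7.66 ± 1.28 points (SD, n = 3).

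Sites at the 2 ends recurred differently. In the MHC, sites of the highest decile overlapped a site in both other lists for 52 of 53 in replicate 1, 111 of 114 in replicate 2 and 105 of 122 in replicate 3. These shares were 98.1%, 97.4% and 86.1%, against 99.4%, 93.0% and 73.8% in the rest of the genome. Sites of the lowest decile did so for 43 of 77, 40 of 136 and 52 of 155, or 55.8%, 29.4% and 33.5%, against 65.8%, 24.2% and 26.5% in the rest of the genome. At both ends the MHC was thus lower in replicate 1 and higher in replicates 2 and 3. Median widths of lowest-decile sites were 30, 40 and 35 nt in the MHC and the same in the rest of the genome. Highest-decile sites had median widths of 60, 80 and 75 nt in the MHC, close to the 60, 85 and 75 nt of the rest of the genome.

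**Figure D3:**
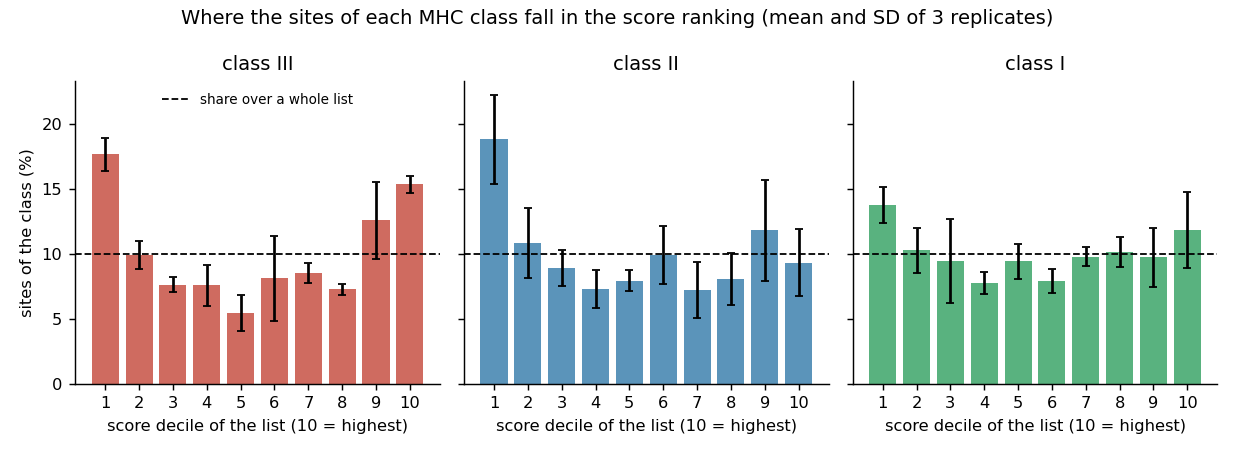
Percent of the sites of class III, class II and class I in each score decile of the replicate's own list, as the mean of 3 replicates with SD; the dashed line is the share over a whole list. Class III is above the line at both ends, with 17.6% of its sites in the lowest and 15.3% in the highest decile, and the lowest decile is above it in all classes.

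Sites in class III recurred more often than those of the other classes when all 3 lists were compared. A replicate 1, 2 or 3 site was counted as recurrent where it overlapped a same-strand site in both other lists by at least 1 nt. In class III, 155 of 171, 144 of 258 and 145 of 284 sites did so, or 90.6%, 55.8% and 51.1%, against 89.1%, 37.8% and 28.4% of all sites in those lists. In class II the shares were 84.8%, 46.8% and 42.2%, and in class I 81.4%, 47.3% and 40.7%. Class III exceeded class II by 7.92 ± 1.77 percentage points and class I by 9.34 ± 0.905 points (SD, n = 3), in each case in all 3 replicates. Class II and class I differed by 1.42 ± 1.92 points, less than the spread, and replicate 2 had the opposite sign.

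The contrast of class III rested in part on which lists were compared. Without replicate 1, where a site needs a match in 1 other list only, class III exceeded class II by 0.602 ± 2.10 points and class I by 4.13 ± 3.41 points (SD, n = 2). Without replicate 2 the differences were 4.23 ± 4.40 and 6.66 ± 2.36 points, and without replicate 3 they were 10.1 ± 2.04 and 8.34 ± 0.0917. Without replicate 1 or without replicate 2, the difference of class III from class II was thus smaller than its spread. With each list limited to its 186157 highest-scoring sites the recurrent share was 49.1%, 63.5% and 69.6% in class III, 44.8%, 57.1% and 65.7% in class II and 42.6%, 48.5% and 57.9% in class I. Over all sites of the limited lists it was 50.4%, 46.8% and 47%. Class III then exceeded class II by 4.89 ± 1.28 points and class I by 11.1 ± 4.29 points (SD, n = 3), and class II exceeded class I by 6.19 ± 3.53.

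Class III kept the highest recurrent share on both sides of the median score. Among sites above the median score of their list, 97.8%, 78.4% and 67.1% recurred in class III, 95.8%, 70.4% and 59.3% in class II and 95.3%, 67.3% and 55.1% in class I. Among the remaining sites, 82.9%, 31.5% and 34.1% recurred in class III, 75.4%, 25.6% and 27.8% in class II and 70.2%, 24.3% and 26.4% in class I. This held in every replicate.

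Relative to the rest of the genome, recurrence in the MHC depended on the replicate. In replicate 1 the MHC had 85.2% against 89.1%, in replicate 2 it had 49.9% against 37.8%, and in replicate 3 it had 44.2% against 28.3%. The mean difference of 7.99 ± 10.5 points (SD, n = 3) was smaller than its spread. Replicates 2 and 3 were above the rest of the genome in all 3 classes, and replicate 1 was above it only in class III, at 90.6%. The pattern was not particular to the MHC. The first 20 Mb of chromosome 19 had 83.8%, 48.9% and 38.1% in replicates 1, 2 and 3. The MHC exceeded that stretch by 2.84 ± 2.81 points (SD, n = 3), a difference about as large as its spread. Class III exceeded it by 8.93 ± 3.48 points (SD, n = 3). Class I stood -0.411 ± 2.67 points from it, less than the spread, and class II also differed by less than the spread.

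Scores of sites shared by a pair of replicates were ranked most alike in class III. Across sites, which share neighbours and are not independent, Spearman's rho was 0.636, 0.627 and 0.789 for replicates 1 and 2, 1 and 3, and 2 and 3, over 163, 155 and 218 shared sites of class III. The values were 0.564, 0.547 and 0.657 over 91, 94 and 146 sites of class II, and 0.524, 0.385 and 0.696 over 206, 203 and 322 sites of class I. They are given as a description only.

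Counted in bases, class III also had the largest recurrent part. Of 21835 nt called in any replicate in class III, 8205 nt or 37.6% were called in all 3. In class II it was 4535 of 14680 nt (30.9%), in class I 8945 of 32690 nt (27.4%), and in the rest of the genome 21.8%. In the first 20 Mb of chromosome 19 it was 28.5%, between class II and class I. Per Mb, class III had 9653 nt called in all 3 replicates, class II 4319 and class I 4708.

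The combined list, which by its name joins the 3 replicates, also had the highest recurrent share in class III. In class III, 139 of 353 combined sites overlapped a site in all 3 replicate lists, or 39.4% (95% exact binomial interval 34.2 to 44.7, counting error only), against 22.9% of all combined sites. In class II it was 81 of 259, or 31.3% (25.7 to 37.3), and in class I 180 of 582, or 30.9% (27.2 to 34.9). The first 20 Mb of chromosome 19 had 30.0%, near the shares of class II and class I. The intervals of classes II and I overlap almost wholly, and that of class III overlaps both at its lower end. Combined sites with no site in any replicate list made up 12.2% of those in class III, 16.6% in class II and 12.9% in class I, against 11% of all combined sites. Since the combined list was made from the same 3 replicates, this recurrence is not independent evidence.

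**Figure D4:**
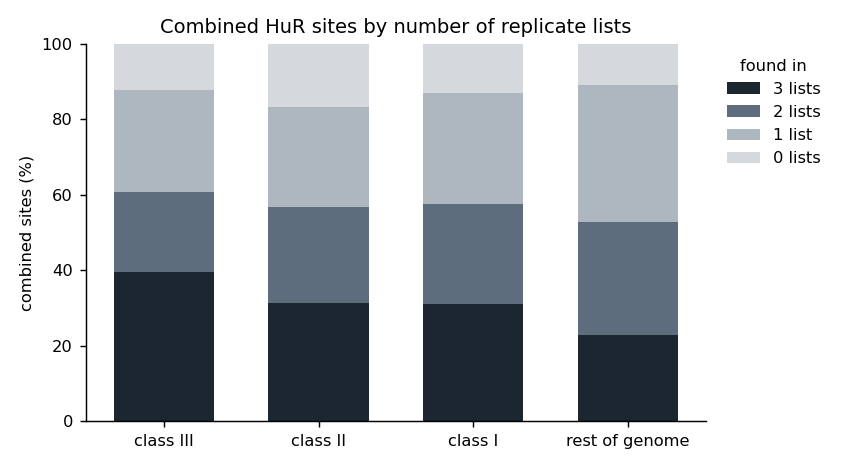
Percent of the combined HuR sites in class III, class II, class I and the rest of the genome that overlap a same-strand site in 3, 2, 1 or 0 replicate lists. Sites found in all 3 lists make up 39.4% in class III, 31.3% in class II, 30.9% in class I and 22.8% in the rest of the genome.

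A combined site was counted as kept by the authors' p filter where any base of it overlapped a site of the p-filtered list. The filter kept 213 of 353 combined sites in class III, or 60.3% (95% exact binomial interval 55.0 to 65.5), against 52.3% of all combined sites. It kept 138 of 259 in class II, or 53.3% (47.0 to 59.5), and 312 of 582 in class I, or 53.6% (49.5 to 57.7). In the first 20 Mb of chromosome 19 it kept 55.8%, above class II and class I and inside the interval of class III. By this count class II and class I were near the share of the whole list and class III was above it. The excess of class III was lost where the whole site had to be covered, which held for 9.35% of sites in class III, 9.65% in class II and 10.3% in class I. With sites of LOD above 1 only, the shares were 65.3% in class III, 62.2% in class II and 57.2% in class I. Among combined sites in all 3 lists it kept 134 of 139 in class III, 77 of 81 in class II and 179 of 180 in class I, against 98.1% over the whole list. In class III 53.6% of the combined bases were kept, in class II 48.2% and in class I 46.2%.

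The recurrent sequence was gathered in a few 10-kb windows. Counted by strand, 47 of 170 windows (27.6%) in class III, 29 of 210 (13.8%) in class II and 61 of 380 (16.1%) in class I had a base called in all 3 replicates, against 7.46% of all windows on the listed chromosomes. The median such window had 95 nt in class III, 75 in class II, 100.0 in class I and 90 in the rest of the genome. Class III therefore had the largest share of windows with recurrent sequence. Its median such window was fuller than that of class II and less full than that of class I. The fullest window had 1065 nt in class III, 1035 in class II and 730 in class I. The 3 leading windows held 35.8% of the recurrent bases of class III, 42.9% of those of class II and 19.2% of those of class I.

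The leading window of class III was chr6:31500001-31510000 on the minus strand, at the very start of the class, with 1065 nt called in all 3 replicates and 19, 25 and 24 sites. Its sites scored low, with median percentiles of 14.9, 26.0 and 20.7. It also held the widest combined site of class III, chr6:31508341-31508850, at 510 nt. The next class III windows were chr6:31800001-31810000 with 940 nt and chr6:31720001-31730000 with 930 nt, both on the plus strand. In the window with 930 nt the sites scored higher, with median percentiles of 56.8, 72.3 and 61.6.

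The leading window of class II was chr6:32940001-32950000 of the plus strand, where 1035 nt were called in every replicate and 17, 16 and 18 sites lay. Its sites had median percentiles of 18.8, 65.3 and 29.6, low in replicates 1 and 3. This window was followed by chr6:32870001-32880000 with 600 nt and chr6:33370001-33380000 with 310 nt, both on the plus strand. Without the window with the most combined sites in each class, which is the leading window in each, the plus-strand share of class III exceeded that of class II by 11.3 points, in place of -0.446. In class I all 3 leading windows were on the minus strand: chr6:30580001-30590000 with 730 nt, chr6:30570001-30580000 with 530 nt and chr6:29700001-29710000 with 460 nt. The first and second adjoin and need not be separate places. Sites of the first had median percentiles of 66.1, 10.5 and 11.2, low in replicates 2 and 3. Among the 46145 windows with any such base in the listed chromosomes, the leading windows of class III, class II and class I ranked 591, 629 and 1643.

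**Figure D5:**
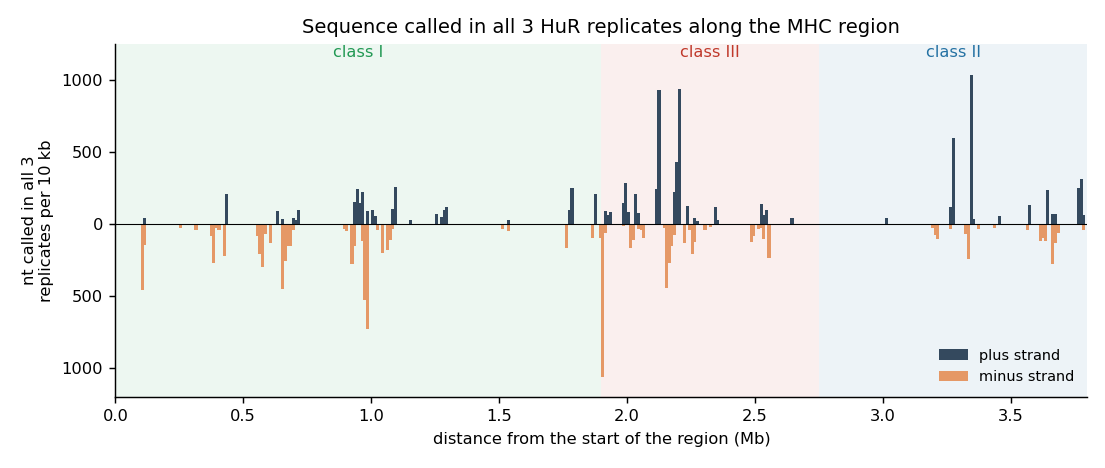
Nucleotides called in all 3 HuR replicates per 10-kb window along the MHC region, plus strand above the line and minus strand below it, plotted against distance from the start of the region in Mb. The tallest bars are a minus-strand window at the start of class III with 1065 nt and a plus-strand window in class II with 1035 nt.

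High scores were most frequent in class III, although the single highest score was in class I. Of the combined sites, 12 of 353 in class III (3.40%), 3 of 259 in class II (1.16%) and 8 of 582 in class I (1.37%) were in the top 1% of the combined list. In the first 20 Mb of chromosome 19 the share was 1.56%, above class II and class I and below class III. The highest combined LOD of the region was 25.8, at chr6:30260736-30260890 on the minus strand in class I, a site of 155 nt. Its replicate scores stood at percentiles 99.3, 99.8 and 100.0 of their lists. The next in class I were chr6:30528116-30528190 on the minus strand with a LOD of 20.9 and chr6:30561806-30561870 on the plus strand with 20.1. At chr6:30022211-30022280 on the minus strand, with a LOD of 19.4, replicate 1 stood only at percentile 61.8 while replicates 2 and 3 stood at 97.2 and 99.9. The last of the leading sites of class I was chr6:29707916-29708000 on the minus strand, with 18.2, in the class I window with 460 nt.

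In class III the highest sites had combined LODs of 23.1 at chr6:31758001-31758090 on the minus strand and 22.9 at chr6:31724861-31724960 on the plus strand. Their replicate percentiles averaged 99.1 ± 1.29 and 99.4 ± 0.452 (SD, n = 3). A further site, chr6:31757131-31757195 on the minus strand with 21.2, lay within 1 kb of the first. Both lay in the fullest class III bin, as did the second site, which was in the plus-strand window with 930 nt. The remaining leading sites were chr6:31592536-31592615 on the plus strand, with 20.6, and chr6:31902766-31902830 on the minus strand, with 20.2.

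The leading sites of class II scored lower than those of the other classes. The highest was chr6:32872481-32872555 on the plus strand with a combined LOD of 19.1, where replicate 3 stood at percentile 88.2 and replicates 1 and 2 at 98.3 and 99.8. It was followed by chr6:33377601-33377700 on the plus strand with 18.0 and chr6:33171151-33171235 on the plus strand with 17.8. The next were chr6:32931021-32931130 on the minus strand with 17.0 and chr6:33384051-33384130 on the plus strand with 15.7. The widest site of the region in the combined list was also in class II, chr6:32869746-32870425 on the plus strand, at 680 nt, and its score stood at percentile 24.5 in replicate 3 against 65.9 and 77.0 in replicates 1 and 2.

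Combined sites found in no replicate list mostly scored low, with median percentiles of the combined list of 4.18 in class III, 2.58 in class II and 6.91 in class I. In class III the highest was chr6:31608801-31608815 on the minus strand with a LOD of 5.74. Class II had the highest of them, chr6:33223611-33223625 on the minus strand with 7.48, at percentile 60.9. In class I the highest was chr6:30759291-30759310 on the plus strand with 6.58. These sites were 15 nt wide in class III and class II and 20 nt wide in class I. The p filter kept all 3, but of all combined sites in no replicate list it kept 3 of 43 in class III, 7 of 43 in class II and 4 of 75 in class I. That was 8.70% in the MHC, against 10.4% in the rest of the genome.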

How the data were processed

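The authors deposited, for each HuR replicate and for the 3 replicates combined, lists of stranded intervals with a LOD score, every one above 0. The submitters' processing notes name hg19, TopHat2 2.0.8 and cutadapt 1.0. How intervals and scores were made, the score's scale and the read depth are not stated in the sources at hand. Per the name of the deposited file, the filtered list was limited at p 0.05.

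Replicates were grouped by title. Densities, strand shares, score percentiles (ties averaged) and same-strand overlaps of at least 1 nt were computed with scipy 1.17.1, pandas 2.3.3 and numpy 2.4.6 in Python 3.11.15, and plotted with matplotlib 3.10.9. Chromosome lengths for the rest of the genome were taken as the position of each chromosome's last site. In simulated data of 9726 sites the largest departure from the set strand share was 2.24 percentage points and from the set recurrence 2.22. Those sites were placed independently, each in 1 or all 3 lists, and the lists were of like length. The 2 values therefore do not give the accuracy of the shares above, where sites cluster and list lengths differ. The region, classes, lists and comparisons were chosen with earlier results of these data known. Named are, per class, the 5 highest combined sites in all 3 replicate lists, the 3 windows with the most bases in all 3 and the highest 3 combined sites in none (the first of each is given), and over the region the 3 fullest and 3 emptiest bins by replicate mean, with ties. Other bins and the widest sites were picked with their values in view. Planned results on genes and U-rich sequence were not run, because the genome annotation here is GRCh38. Intervals cover counting error only.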

Additional observations from a re-analysis of the deposited data

How the results depend on the processing

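Read depth is unknown and limits every statement on missing sites. Of 149 alternative values for 17 results, 92 moved by less than the spread between replicates (for the p filter, within the binomial interval), 48 moved by more and 9 changed sign. Taken as the mean over the lists used, no density ratio changed side in 39 alternatives and no score difference changed sign in 30. Between replicates, the score differences of class III and of class II from class I did change sign. A result with a wide spread counts more alternatives as within it. The cause of the changes was not tested. Alternatives without the 3 fullest bins, by majority strand, without empty bins and for high-scoring sites were chosen after seeing the data. Results on genes and sequence were not run. Leaving out each replicate in turn gave class III to class I density ratios of 1.44 to 1.55, class III to class II ratios of 1.81 to 1.94, class II to class I ratios of 0.794 to 0.799 and MHC to rest ratios of 1.52 to 1.95. The same gave plus-strand differences, in points, of 16.3 to 19.1 for class III minus class I, -2.03 to 2.57 for class III minus class II and 16.5 to 19.4 for class II minus class I. It gave median percentile differences of 0.339 to 4.97, 4.73 to 7.23 and -6.82 to -2.26 for these pairs, and recurrence differences of 4.13 to 8.34, 0.602 to 10.1 and -1.76 to 3.53, and of 3.92 to 6.11 for the MHC minus the rest. In covered bases the class III to class I density ratio was 1.69 and the class II to class I ratio 0.862, and the plus-strand differences were 20.7 (class III minus class I), -5.88 (class III minus class II) and 26.6 (class II minus class I). With inner limits moved 100 kb up, the density ratios were 1.10 (class III to class I), 1.36 (class III to class II) and 0.812 (class II to class I), and the plus-strand difference of class III from class II was 0.966. With limits moved down, class III to class II was 2.18 and class II to class I 0.722. Without the 3 fullest bins the ratios were 1.28 (class III to class I), 2.33 (class III to class II) and 0.551 (class II to class I), and the plus-strand differences 8.36, -17.1 and 25.4 for the same pairs. Without the fullest 10-kb window the plus-strand differences were 22.1, 11.3 and 10.8 for those pairs, and the class II to class I density ratio 0.747. By majority strand of windows they were 8.67, 11.1 and -2.42. In the combined list the density ratios were 1.36, 1.68 and 0.805 for those pairs, the plus-strand difference of class III from class II 0.00109 and their percentile difference 9.40. In the p-filtered list the density ratio of class III to class I was 1.62 and of class II to class I 0.831, the plus-strand difference of class III from class II 0.366, and the percentile differences 11.6 for class III minus class II and -10.7 for class II minus class I. With LOD above 1, the recurrence differences of class III were 6.85 from class I and 5.50 from class II, its plus-strand difference from class II was 0.270, the class II to class I density ratio was 0.787, and the p filter kept 62.2% of class II sites. Recurrence by 50% shared length gave 8.32 for class III minus class I. With lists of equal length the recurrence differences were 11.1 (class III minus class I), 4.89 (class III minus class II) and 6.19 (class II minus class I). Above the median score the recurrence difference of class III from class II was 5.90. Without empty bins the MHC to rest density ratio was 1.10. The share of combined sites wholly covered after the p filter was 9.35% in class III, 9.65% in class II and 10.3% in class I. No paired analysis was possible because the negative control samples, which share the replicate numbers, have no values analysed here, while the class differences were taken within each replicate list.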
